A study of Arabidopsis thaliana with 24 samples.

Results

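In root tips of Arabidopsis thaliana, 83 genes had markedly less mRNA after 2 h with zeocin than after 2 h with the solvent alone, and did so both in the brl3-2 mutant and in the Columbia wild type (WT). They are called the falling genes here. A gene counted as a falling gene where, in each genotype, its mean over the 3 zeocin libraries was at most 0.6 of its mean over the 3 mock libraries, its highest zeocin library lay below its lowest mock library, and its mock mean was at least 2 CPM. Genes of the mitochondrial and chloroplast genomes were left out. CPM are the deposited counts of a gene scaled to a library total of 1000000 counts. The 83 genes were found among 33296 named genes, of which 16030 reached 2 CPM in mock in both genotypes. Since the levels under zeocin and in mock chose these genes, their changes with zeocin are given below as a description, and no test of that change is offered as support.

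The groups were brl3-2 with zeocin, brl3-2 mock, WT with zeocin and WT mock, with 3 libraries each and 12 in all. The brl3-2 line carries a T-DNA insertion in BRL3, a brassinosteroid receptor gene related to BRI1, and it was studied as this single insertion line (SALK_006024C). Seedlings were 6 days old, and only tips of the primary root were taken after 2 h in liquid medium with zeocin or with DMSO, which is the mock treatment. The labels give a zeocin dose of 10 µM in one place and 2 µM in another, so no dose is attached to the values. Root tips hold many cell types, and in such samples fewer cells of a type and less RNA per cell cannot be told apart.

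Zeocin belongs to the bleomycin family and breaks DNA. In plants such breaks activate the kinase ATM and the transcription factor SOG1, which switches on repair and checkpoint genes, while division in the root meristem is held back. The tip of the root is also where the vascular cylinder begins to form, and in its pericycle and xylem parenchyma membrane proteins export potassium, phosphate, nitrate, metals and amino acids towards the shoot. Some of the falling genes encode proteins of that kind.

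Library totals ranged from 32668516 to 38276389 counts in 10 libraries, and the WT zeocin and WT mock libraries numbered 3 held 73481046 and 70212858. BRL3 lay between 0.713 and 1.32 CPM in the 6 brl3-2 libraries and between 9.87 and 31.9 CPM in the 6 WT libraries, so the transcript followed the genotype labels. Marker genes of photosynthesis in the shoot summed to 106 CPM in brl3-2 mock replicate 2 and to 15.3 to 28.3 CPM in the other 11 libraries. Without that library the same rule found 80 genes, of which 75 were among the 83.

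The falling genes were sorted by what their products are known or annotated to do. They held 18 genes of transporters and channels, 13 of transcription factors, 8 of hormone or peptide signalling, 8 of other signalling or ubiquitin transfer, 10 of the cell wall or of secreted proteins, 7 of metabolic enzymes, 17 little-known proteins and 2 non-coding RNAs. Product descriptions that name transport were found for 14 of the 83 (16.9%) and for 612 of the 19437 genes tested (3.15%). Among these roles the transporter and channel genes had the lowest median ratio of zeocin to mock. The rule used that ratio and the roles were given to genes already chosen, so the ranking is a description. Their median, as the geometric mean over both genotypes, was 0.389, against 0.455 for metabolic enzymes, 0.451 for hormone and peptide genes and 0.462 for transcription factors. It was 0.483 for the 2 non-coding RNAs, 0.510 for little-known proteins, 0.523 for cell wall and secreted proteins and 0.532 for other signalling genes.

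Sequences upstream of 4 falling genes are shown because they stand for what was seen and not seen there. UMAMIT14, which had the lowest ratio, and SKOR, a potassium channel gene of the stele, hold no match to the palindrome known to be bound by SOG1, CTTNNNNNNNAAG. GA3OX1 and FRD3 are 2 of the 4 falling genes that hold one, and capitals mark it. Each sequence is the 250 bases before the annotated start of the gene, 5′ to 3′ on the strand of the gene, from the NCBI RefSeq genome TAIR10.1. The regions are chr2:16493344-16493593 (minus strand) for UMAMIT14, chr3:623740-623989 (minus strand) for SKOR, chr1:5346343-5346592 (minus strand) for GA3OX1 and chr3:2569701-2569950 (minus strand) for FRD3, and no other annotated gene overlaps them.
UMAMIT14: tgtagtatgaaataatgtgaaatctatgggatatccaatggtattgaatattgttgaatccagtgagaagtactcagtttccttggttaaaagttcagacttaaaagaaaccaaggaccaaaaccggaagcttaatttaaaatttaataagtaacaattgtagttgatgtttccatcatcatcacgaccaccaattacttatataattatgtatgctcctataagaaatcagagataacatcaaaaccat
SKOR: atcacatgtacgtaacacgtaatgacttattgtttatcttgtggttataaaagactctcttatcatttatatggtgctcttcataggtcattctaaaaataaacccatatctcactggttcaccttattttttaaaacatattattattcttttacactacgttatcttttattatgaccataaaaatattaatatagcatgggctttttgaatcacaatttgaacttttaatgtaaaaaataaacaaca
GA3OX1: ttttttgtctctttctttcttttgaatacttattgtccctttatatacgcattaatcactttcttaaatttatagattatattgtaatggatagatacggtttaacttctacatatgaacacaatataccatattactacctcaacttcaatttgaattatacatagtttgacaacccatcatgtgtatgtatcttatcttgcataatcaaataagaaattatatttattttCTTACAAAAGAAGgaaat
FRD3: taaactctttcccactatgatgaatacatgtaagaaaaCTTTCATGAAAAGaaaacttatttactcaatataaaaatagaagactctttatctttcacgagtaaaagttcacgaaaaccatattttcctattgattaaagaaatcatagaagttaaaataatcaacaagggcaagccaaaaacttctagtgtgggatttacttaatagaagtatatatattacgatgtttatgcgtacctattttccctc

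Over all 83 such regions, the SOG1 palindrome was found in 4 (4.82%), namely those of GA3OX1, FRD3, XTH26 and AT3G14780, and in 9.13% of the 19328 tested genes with a full region of this length. Motifs were searched on both strands. The W-box core TTGAC stood in 34 regions (41.0%, against 45.2% of all) and the G-box CACGTG in 4 (4.82%, against 7.25%). The auxin response element TGTCTC stood in 3 (3.61%, against 10.6%), the mitosis-specific activator core AACGG in 12 (14.5%, against 22.1%) and the MYB core CNGTTN in 46 (55.4%, against 71.5%). AACGG read on the other strand is CCGTT, so its matches also count as matches of the MYB core where another base follows. The regions of the falling genes had a median GC content of 28.4%, against 31.2% over all genes, and no motif searched was found in a larger share of the falling genes than of all genes. A match is a description of letters and not a binding site.

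Ratios of zeocin to mock ran from 0.0266 to 0.598 in brl3-2 (median 0.472) and from 0.0346 to 0.599 in WT (median 0.476). Both ratios were at most 0.5 for 40 genes and at most 0.25 for 8. At the edge of the rule, NHL1 had ratios of 0.5984 in brl3-2 and 0.5727 in WT, and TLP1 had 0.5809 and 0.5986. Just outside lay AT4G32480, with 0.6011 in brl3-2 and 0.5289 in WT, and ABCG14, with 0.5346 and 0.6021. Nothing separates these neighbours but the threshold.

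Summed over the 83 genes, mRNA made up 958, 928 and 922 CPM in brl3-2 zeocin, against 2003, 2156 and 1951 CPM in brl3-2 mock. The sums were 871, 1043 and 1096 CPM in WT zeocin, against 2399, 2348 and 1973 CPM in WT mock. Every zeocin library was below every mock library, as the rule requires of each gene. Over all genes tested, 13.2% were so separated in brl3-2 and 7.33% in WT. Within a genotype, the median falling gene stood at −1.02, −1.15 and −1.15 in the 3 brl3-2 zeocin libraries on a log2 scale relative to the brl3-2 mock mean, and at −1.37, −1.09 and −1.02 in the 3 WT zeocin libraries relative to the WT mock mean. WT zeocin replicate 1 lay lowest.

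**Figure D1:**
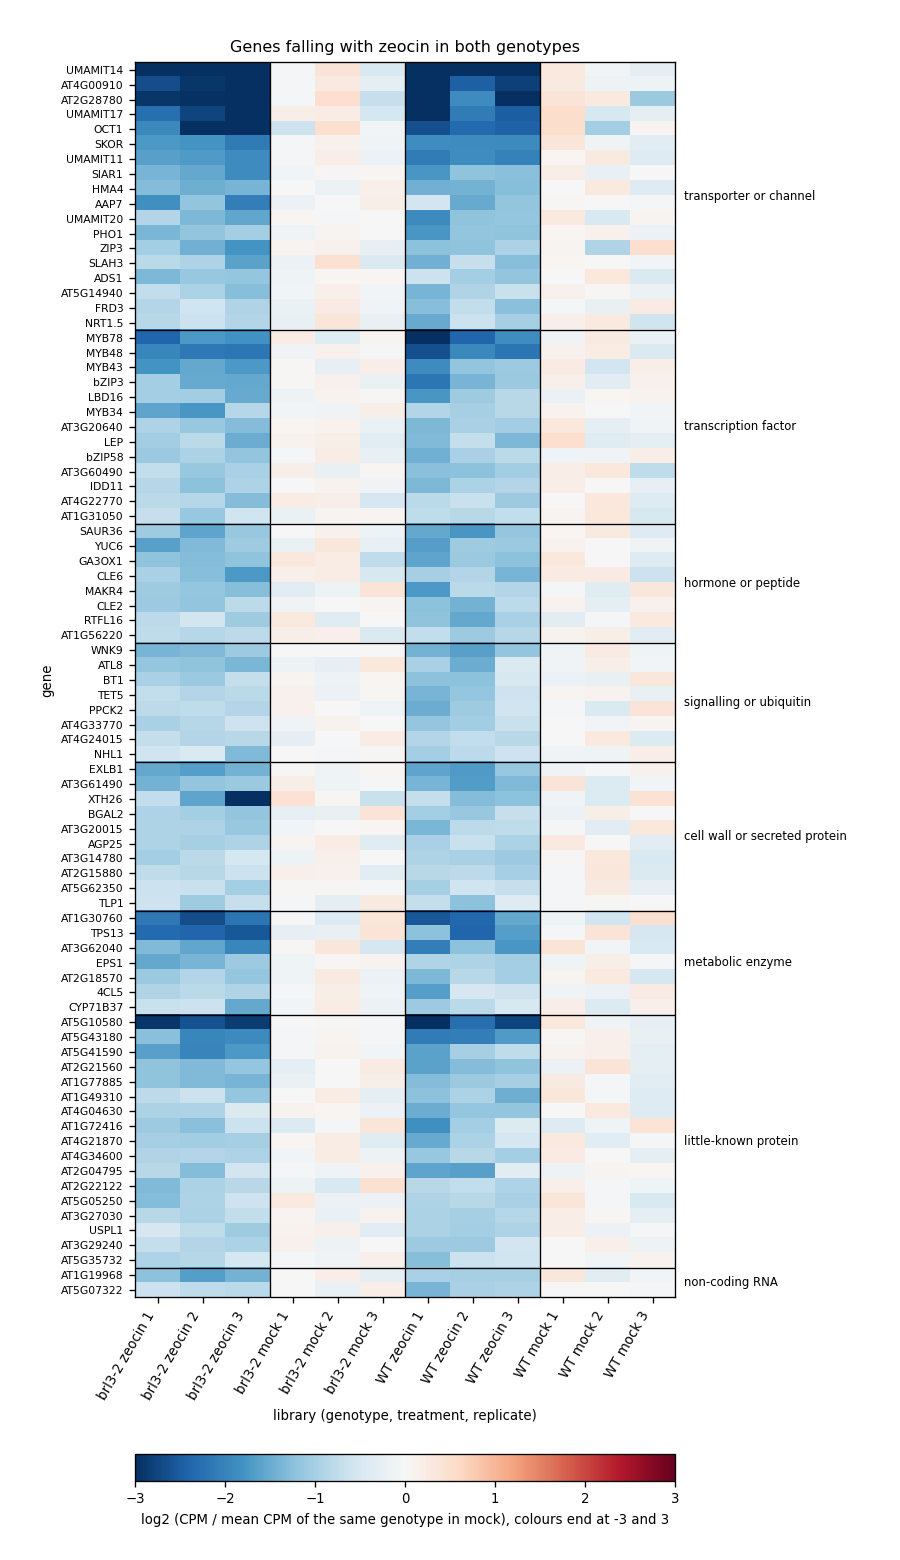
Level of each of the 83 falling genes (rows, grouped by role) in each of the 12 libraries (columns), as log2 of CPM over the mean CPM of the same genotype in mock, with colours ending at −3 and 3. The zeocin columns are blue throughout, palely for some genes and most deeply at the top among transporter and channel genes. Most mock cells are near white, but those of genes such as AT2G28780, OCT1 and ZIP3 vary between libraries.

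UMAMIT14 (AT2G39510, chr2:16491143-16493343, minus strand) belongs to a family of amino acid exporters. It had 0.119, 0.0606 and 0.183 CPM in brl3-2 zeocin, against 4.43, 5.93 and 3.30 CPM in brl3-2 mock, and 0.306, 0.179 and 0.204 CPM in WT zeocin, against 8.15, 6.25 and 5.54 CPM in WT mock. Its level was 37.6-fold lower in brl3-2 and 28.9-fold lower in WT, and the log2 fold change of edgeR was −5.13 ± 0.34 in brl3-2 and −4.82 ± 0.30 in WT (SE, n = 3 per group). No other falling gene lay so low. The zeocin values rest on few reads, with 13 counts in all over the 3 brl3-2 zeocin libraries and 31 over the 3 WT zeocin libraries, against 455 in brl3-2 mock and 883 in WT mock.

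AT4G00910 (AT4G00910, chr4:387388-391441, minus strand) is annotated as an aluminium-activated malate transporter, a family of anion channels. It had 2.00, 1.67 and 1.36 CPM in brl3-2 zeocin, against 12.3, 15.2 and 10.6 CPM in brl3-2 mock, and 1.29, 2.75 and 2.14 CPM in WT zeocin, against 18.0, 13.3 and 13.4 CPM in WT mock. That is 7.58-fold lower in brl3-2 and 7.24-fold lower in WT. The zeocin libraries of WT spread more widely, in relative terms, than its mock libraries, and lay below all of them as the rule requires. Of its exon bases 43.1% are shared with exons of the other strand, and the sources used here do not say whether counting used strand.

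AT2G28780 is annotated as a subunit of an aromatic acid efflux pump, by likeness to a bacterial protein. It had 5.55, 5.33 and 3.40 CPM in brl3-2 zeocin, against 39.9, 59.2 and 25.8 CPM in brl3-2 mock, and 6.58, 15.9 and 7.36 CPM in WT zeocin, against 77.1, 73.1 and 27.4 CPM in WT mock. The mock libraries were spread widely, with the libraries numbered 3 lowest in both genotypes. The rule requires them to lie above the zeocin libraries of the same genotype. The level was 8.75-fold lower in brl3-2 and 5.96-fold lower in WT.

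UMAMIT17 (AT4G08300, chr4:5244865-5248394, plus strand) had 4.03, 2.88 and 2.01 CPM in brl3-2 zeocin, against 22.0, 22.8 and 13.4 CPM in brl3-2 mock, and 1.93, 4.75 and 3.66 CPM in WT zeocin, against 29.3, 14.5 and 16.8 CPM in WT mock. OCT1, an organic cation transporter gene, had 0.806, 0.333 and 0.235 CPM in brl3-2 zeocin, against 1.99, 4.28 and 2.90 CPM in brl3-2 mock, and 0.459, 0.567 and 0.531 CPM in WT zeocin, against 4.09, 1.40 and 3.03 CPM in WT mock. In both genes the mock values differed by more than 1.5 times between replicates. The zeocin values lay below all of them, as the rule requires within each genotype. The log2 fold changes were −2.67 ± 0.37 in brl3-2 and −2.50 ± 0.36 in WT for UMAMIT17, and −2.71 ± 0.50 in brl3-2 and −2.41 ± 0.47 in WT for OCT1.

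SKOR, the outward potassium channel that loads potassium into the xylem, had 3.46, 3.33 and 2.64 CPM in brl3-2 zeocin, against 11.2, 12.6 and 10.7 CPM in brl3-2 mock, and 3.86, 3.79 and 3.72 CPM in WT zeocin, against 18.0, 12.8 and 11.1 CPM in WT mock. The 3 WT zeocin libraries were nearly alike, and all 6 zeocin libraries lay between 2.64 and 3.86 CPM. UMAMIT11 had 2.99, 2.88 and 2.51 CPM in brl3-2 zeocin, against 9.09, 10.6 and 8.19 CPM in brl3-2 mock, and 2.30, 2.69 and 2.42 CPM in WT zeocin, against 10.2, 11.8 and 7.52 CPM in WT mock. Here too the zeocin libraries of both genotypes fell within a narrow band, between 2.30 and 2.99 CPM. The log2 fold changes were −1.84 ± 0.16 in brl3-2 and −1.84 ± 0.16 in WT for SKOR and −1.70 ± 0.15 in brl3-2 and −1.95 ± 0.15 in WT for UMAMIT11.

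Several of the other transporter genes serve the loading of the xylem with minerals. PHO1, the phosphate exporter of the stele, averaged 67.8 ± 8.48 CPM in brl3-2 zeocin, against 154 ± 9.67 CPM in brl3-2 mock, and 68.2 ± 14.0 CPM in WT zeocin, against 174 ± 18.9 CPM in WT mock (SD, n = 3 in each group). HMA4, a pump that loads zinc into the xylem, averaged 31.0 ± 1.96 CPM in brl3-2 zeocin, against 81.1 ± 9.29 CPM in brl3-2 mock, and 32.6 ± 2.14 CPM in WT zeocin, against 84.9 ± 19.2 CPM in WT mock. FRD3, an exporter of citrate needed for iron transport in the xylem, averaged 2.37 ± 0.286 CPM in brl3-2 zeocin, against 4.09 ± 0.699 CPM in brl3-2 mock, and 1.94 ± 0.437 CPM in WT zeocin, against 4.07 ± 0.653 CPM in WT mock. SLAH3, an anion channel that carries nitrate and chloride, averaged 15.7 ± 4.28 CPM in brl3-2 zeocin, against 33.1 ± 11 CPM in brl3-2 mock, and 16.4 ± 4.84 CPM in WT zeocin, against 35.1 ± 1.85 CPM in WT mock. In each of these genes all zeocin libraries lay below all mock libraries of the same genotype, as the rule requires.

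NRT1.5, a nitrate transporter that loads nitrate into the xylem, had the highest mock level per kilobase of exon among the falling genes, at 133 CPM per kilobase as the mean of both genotypes. It had 146, 167 and 142 CPM in brl3-2 zeocin, against 223, 336 and 226 CPM in brl3-2 mock, and 114, 208 and 163 CPM in WT zeocin, against 366, 400 and 215 CPM in WT mock. Zeocin and mock libraries came close to each other in WT, where the highest zeocin library had 208 and the lowest mock library 215 CPM. Its log2 fold change was −0.75 ± 0.24 in brl3-2 and −0.97 ± 0.24 in WT.

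The remaining carriers were SIAR1, also called UMAMIT18 (log2 −1.56 ± 0.17 in brl3-2 and −1.35 ± 0.17 in WT), UMAMIT20 (−1.20 ± 0.24 in brl3-2 and −1.35 ± 0.24 in WT), the zinc transporter gene ZIP3 (−1.34 ± 0.32 in brl3-2 and −1.11 ± 0.31 in WT) and the amino acid permease gene AAP7 (−1.62 ± 0.27 in brl3-2 and −1.01 ± 0.26 in WT). The last were ADS1, of the MATE efflux family (−1.18 ± 0.17 in brl3-2 and −0.89 ± 0.16 in WT), and AT5G14940, of the major facilitator family (−0.94 ± 0.21 in brl3-2 and −0.90 ± 0.20 in WT). A list of 14 genes known for ion transport in the stele, to or from the xylem, was written after these values were seen. Of its genes, 6 are falling genes (NRT1.5, HMA4, SKOR, FRD3, PHO1 and SLAH3). Since those 6 were chosen for falling, no summary of the list is given. SLAH1, an anion channel gene of the same list, moved the other way, at 2.49 ± 0.28 in brl3-2 and 2.30 ± 0.27 in WT. HMA2 was at −0.70 ± 0.21 in brl3-2 (edgeR adjusted p = 0.092) and −1.01 ± 0.20 in WT (edgeR adjusted p = 0.011). The rest of the list, BOR1, SLAH2, PHO1;H1, HKT1, NRT1.8 and IREG1, passed edgeR's test in neither genotype.

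**Figure D2:**
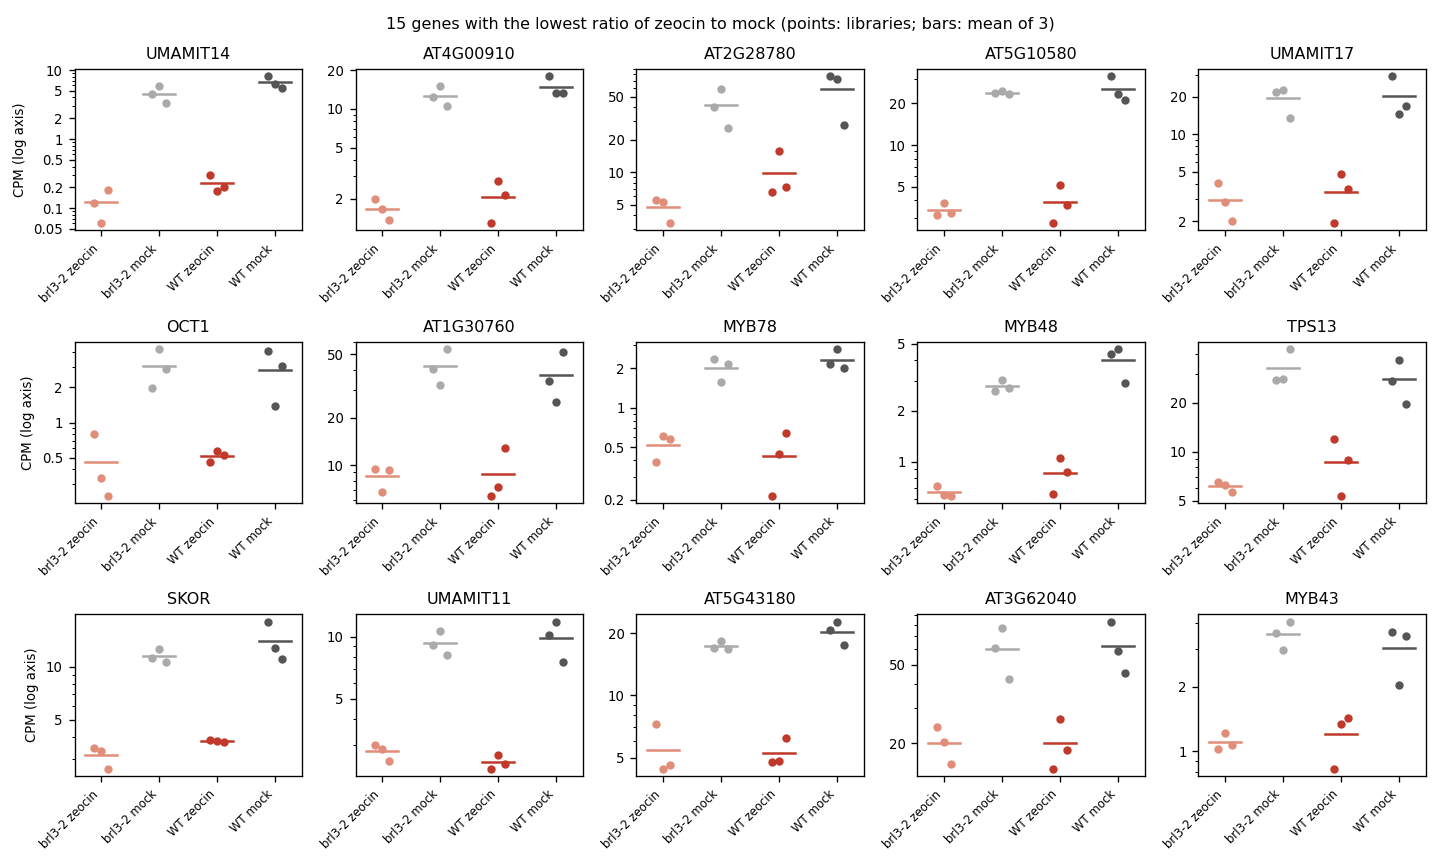
CPM (log axis) in each library for the 15 falling genes with the lowest ratio of zeocin to mock, with groups side by side on the horizontal axis, points for the 3 libraries of a group and bars for their mean. Zeocin points lie below all mock points of the same genotype in every panel because the rule requires it, and UMAMIT14 shows the widest gap.

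Of the UMAMIT family, 46 genes are annotated, 32 were tested and 5 are falling genes. In edgeR's test over all genes, 5 of the 32 fell and 1 rose in brl3-2, and 5 fell and 1 rose in WT, the 5 being the falling genes themselves. Over all genes, 1.05% were called lower and 4.32% higher in brl3-2, and 0.900% lower and 4.07% higher in WT. The median over the 32 was −0.05 in brl3-2 and −0.21 in WT. UMAMIT30 was the gene that rose, at 1.97 ± 0.15 in brl3-2 (edgeR adjusted p = 3.5e-06) and 2.36 ± 0.15 in WT (edgeR adjusted p = 8.6e-07). UMAMIT20 and UMAMIT17 lie on chromosome 4 on the same strand with 3752 bases between them.

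**Figure D3:**
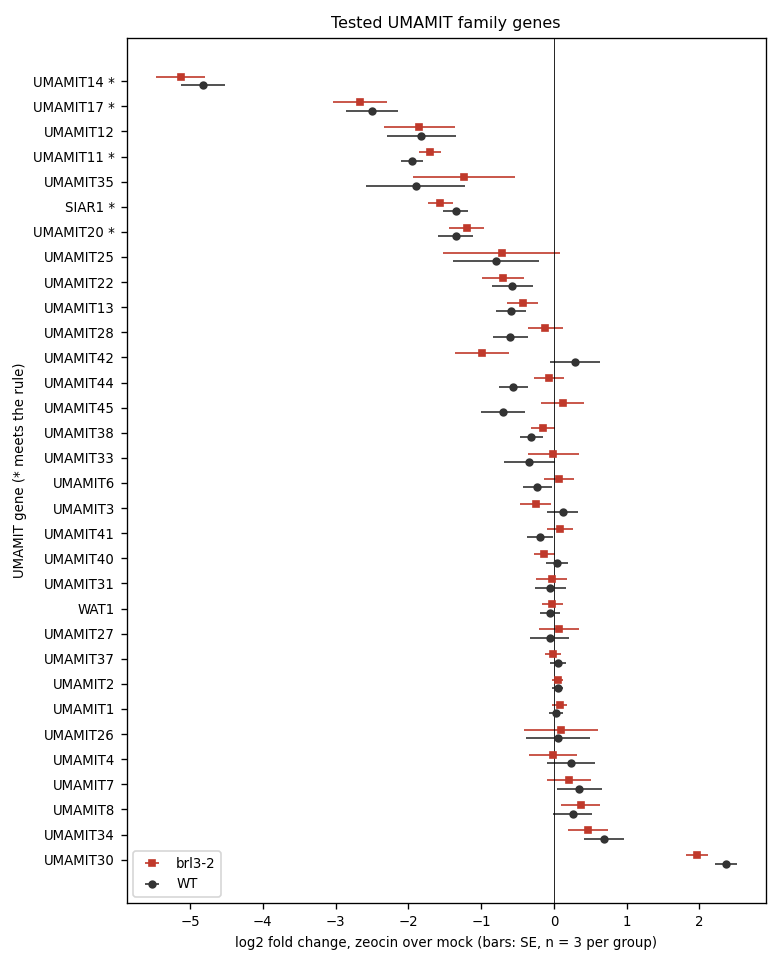
log2 fold change of zeocin over mock, with SE, for the 32 tested UMAMIT genes (rows) in brl3-2 (squares) and WT (circles), 3 libraries per group. The 5 starred genes meet the rule, UMAMIT14 lies near −5 and UMAMIT30 near 2.

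Transcription factor genes made up the next group. MYB78 had 0.388, 0.606 and 0.575 CPM in brl3-2 zeocin, against 2.35, 1.56 and 2.14 CPM in brl3-2 mock, and 0.214, 0.448 and 0.640 CPM in WT zeocin, against 2.16, 2.80 and 2.02 CPM in WT mock. MYB48 had 0.717, 0.636 and 0.627 CPM in brl3-2 zeocin, against 2.61, 3.06 and 2.72 CPM in brl3-2 mock, and 0.643, 1.05 and 0.871 CPM in WT zeocin, against 4.36, 4.65 and 2.93 CPM in WT mock. Both are R2R3 MYB genes, and both stayed at or below 1.05 CPM in all 6 zeocin libraries and at or above 1.56 CPM in all 6 mock libraries. MYB43, of the same family, had 1.02, 1.21 and 1.07 CPM in brl3-2 zeocin, against 3.59, 2.97 and 4.04 CPM in brl3-2 mock, and 0.826, 1.34 and 1.43 CPM in WT zeocin, against 3.62, 2.03 and 3.46 CPM in WT mock. MYB34, a regulator of indole glucosinolate synthesis, averaged 8.09 ± 2.79 CPM in brl3-2 zeocin, against 20.6 ± 2.20 CPM in brl3-2 mock, and 9.34 ± 0.533 CPM in WT zeocin, against 17.4 ± 1.11 CPM in WT mock (SD, n = 3 in each group). Of 60 MYB genes tested, 5 fell and 2 rose in brl3-2, and 6 fell and 2 rose in WT (edgeR), with a median of 0.05 in brl3-2 and 0.01 in WT. The shares called over all genes were 1.05% lower and 4.32% higher in brl3-2, and 0.900% and 4.07% in WT. The 4 MYB genes named here were chosen for falling, so the counts of falls in part restate the rule.

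LBD16, which acts downstream of auxin in the founding of lateral roots, averaged 1.69 ± 0.308 CPM in brl3-2 zeocin, against 3.79 ± 0.360 CPM in brl3-2 mock, and 1.78 ± 0.531 CPM in WT zeocin, against 4.0 ± 0.441 CPM in WT mock. Its libraries lay between 1.19 and 2.23 CPM with zeocin and between 3.39 and 4.33 CPM in mock. Of 15 tested LBD genes, 5 fell in brl3-2 and 4 in WT and 0 rose (edgeR, median −0.28 in brl3-2 and −0.31 in WT). The others that fell in both genotypes were LBD14 (−2.88 ± 0.41 in brl3-2 and −2.46 ± 0.37 in WT), LBD33 (−2.28 ± 0.55 and −3.0 ± 0.54) and LBD39 (−0.45 ± 0.12 and −0.49 ± 0.11). Levels were low already in mock for LBD14 (0.672 CPM in brl3-2 and 0.653 CPM in WT) and LBD33 (0.441 and 0.508 CPM), so their changes rest on few reads. LBD37 fell in brl3-2 (−0.49 ± 0.11, edgeR adjusted p = 0.016) and was at −0.31 ± 0.11 in WT (edgeR adjusted p = 0.16). Over all genes, 1.05% were called lower in brl3-2 and 0.900% in WT, and LBD16 itself was chosen for falling. In the fit on the WT libraries alone 1 LBD gene fell in edgeR and 4 in DESeq2. In the fit on all 12 libraries the WT count was 2 without WT zeocin replicate 2, and the brl3-2 count was 1 to 2 without brl3-2 zeocin replicate 2 or 3 or any brl3-2 mock library.

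The remaining transcription factor genes include bZIP3 (log2 −1.30 ± 0.26 in brl3-2 and −1.44 ± 0.25 in WT) and bZIP58 (−1.04 ± 0.20 in brl3-2 and −1.02 ± 0.20 in WT), both of the basic leucine zipper family. LEP, of the ERF family, which promotes growth of leaf tissue, was at −1.05 ± 0.26 in brl3-2 and −1.07 ± 0.26 in WT, and AT3G60490 of that family was at −0.90 ± 0.24 in brl3-2 and −1.10 ± 0.24 in WT. IDD11, a zinc finger gene, was at −0.96 ± 0.16 in brl3-2 and −0.99 ± 0.16 in WT. The bHLH genes AT3G20640 and AT1G31050 were at −1.08 ± 0.18 in brl3-2 and −1.07 ± 0.18 in WT, and at −0.75 ± 0.18 in brl3-2 and −0.74 ± 0.18 in WT. The AT hook gene AT4G22770 was at −0.93 ± 0.22 in brl3-2 and −0.81 ± 0.22 in WT. All lay within a range that is shallow beside MYB78 and MYB48. Over 58 tested ERF genes, 2 fell and 6 rose in brl3-2, and 4 fell and 4 rose in WT (edgeR), with medians of −0.02 and −0.17. LEP and AT3G60490 among them were chosen for falling. The shares called over all genes were 1.05% lower and 4.32% higher in brl3-2, and 0.900% and 4.07% in WT.

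Among the hormone and peptide genes, YUC6 makes auxin and GA3OX1 carries out the last step to active gibberellin. YUC6 averaged 1.07 ± 0.207 CPM in brl3-2 zeocin, against 2.67 ± 0.624 CPM in brl3-2 mock, and 1.05 ± 0.220 CPM in WT zeocin, against 2.50 ± 0.188 CPM in WT mock (SD, n = 3 in each group). GA3OX1 averaged 6.61 ± 0.268 CPM in brl3-2 zeocin, against 15.6 ± 5.56 CPM in brl3-2 mock, and 8.84 ± 1.42 CPM in WT zeocin, against 21.8 ± 5.27 CPM in WT mock. SAUR36, an auxin-responsive gene, averaged 4.34 ± 0.800 CPM in brl3-2 zeocin, against 10.3 ± 1.03 CPM in brl3-2 mock, and 4.41 ± 0.939 CPM in WT zeocin, against 12.1 ± 2.67 CPM in WT mock. The peptide genes CLE2 and CLE6 encode short secreted signals of the CLAVATA3 type, and their log2 fold changes were −0.97 ± 0.19 in brl3-2 and −1.09 ± 0.19 in WT for CLE2 and −1.25 ± 0.27 in brl3-2 and −1.03 ± 0.26 in WT for CLE6. MAKR4, a membrane-associated kinase regulator, was at −1.14 ± 0.31 in brl3-2 and −1.05 ± 0.29 in WT, and RTFL16, of a family of small peptides, at −0.76 ± 0.24 in brl3-2 and −1.19 ± 0.24 in WT.

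AT1G56220, annotated as dormancy or auxin associated, was the second most abundant falling gene per kilobase in mock, at 99.2 CPM per kilobase. It had 97.7, 90.9 and 95.5 CPM in brl3-2 zeocin, against 187, 184 and 123 CPM in brl3-2 mock, and 125, 97.4 and 115 CPM in WT zeocin, against 222, 234 and 165 CPM in WT mock. Its fold was small, at 1.74-fold lower in brl3-2 and 1.84-fold lower in WT. That the 2 treatments did not overlap was required by the rule. From lists of hormone genes, LBD16 was the only falling gene among 15 auxin-responsive genes. Of these 15, 2 fell and 2 rose in each genotype (edgeR), IAA29 and IAA5 being those that rose. LBD16, chosen for falling, fell in both, beside ARF19 in brl3-2 and IAA2 in WT. IAA5 was near no reads in mock, at 0.0301 CPM in brl3-2 and 0.00949 CPM in WT. The shares called over all genes were 1.05% lower and 4.32% higher in brl3-2, and 0.900% and 4.07% in WT. The brassinosteroid synthesis list, with 5 genes, held 0 falling genes, and ROT3 fell in both genotypes (−0.55 ± 0.10 in brl3-2, edgeR adjusted p = 0.0069, and −0.41 ± 0.10 in WT, edgeR adjusted p = 0.037).

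Metabolic enzymes included some steep changes. AT1G30760, of the berberine bridge enzyme family of oxidases, had 9.49, 6.73 and 9.30 CPM in brl3-2 zeocin, against 40.3, 32.1 and 54.2 CPM in brl3-2 mock, and 6.40, 7.26 and 12.9 CPM in WT zeocin, against 34.1, 25.1 and 52.2 CPM in WT mock. TPS13, a terpene synthase gene, had 6.54, 6.24 and 5.62 CPM in brl3-2 zeocin, against 27.4, 27.8 and 42.8 CPM in brl3-2 mock, and 11.9, 5.34 and 8.85 CPM in WT zeocin, against 27.3, 36.5 and 19.7 CPM in WT mock. WT zeocin replicate 1 was the highest zeocin library of TPS13, and the rule requires it to lie below the lowest WT mock library. AT3G62040, a hydrolase gene of the haloacid dehalogenase type, had 24.1, 20.3 and 15.6 CPM in brl3-2 zeocin, against 61.1, 76.6 and 42.5 CPM in brl3-2 mock, and 14.8, 26.6 and 18.5 CPM in WT zeocin, against 82.7, 58.7 and 45.4 CPM in WT mock. At 65.8 CPM per kilobase in mock it was also among the 4 most abundant falling genes per kilobase. The other enzymes were EPS1, which acts in salicylic acid synthesis (log2 −1.29 ± 0.16 in brl3-2 and −0.92 ± 0.16 in WT), the lignin pathway gene 4CL5 (−0.83 ± 0.26 in brl3-2 and −0.81 ± 0.25 in WT), CYP71B37 (−0.87 ± 0.26 in brl3-2 and −0.73 ± 0.26 in WT) and the glycosyltransferase gene AT2G18570 (−1.01 ± 0.21 in brl3-2 and −0.99 ± 0.20 in WT). Of the exon bases of TPS13, 15.6% are shared with exons of the other strand.

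Other genes of the families these enzymes come from were looked at as well, where 1.05% of all genes were called lower and 4.32% higher in brl3-2, and 0.900% lower and 4.07% higher in WT. Of 20 tested terpene synthase genes, 3 fell and 2 rose in brl3-2, and 1 fell and 1 rose in WT (edgeR). In the berberine bridge enzyme family AT1G30760 was the 1 gene of 15 that fell in each genotype. Of 139 cytochrome P450 genes 1 fell and 5 rose in brl3-2, and 2 fell and 8 rose in WT. Among 93 UDP-glycosyltransferase genes 5 fell and 5 rose in brl3-2, and 3 fell and 4 rose in WT.

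Of the 10 genes of the cell wall or of secreted proteins, EXLB1, an expansin-like gene, had the lowest ratio, with 10.8 ± 0.857 CPM in brl3-2 zeocin, against 31.4 ± 1.78 CPM in brl3-2 mock, and 12.3 ± 2.73 CPM in WT zeocin, against 33.7 ± 3.09 CPM in WT mock (SD, n = 3 in each group). AT3G61490, a pectin lyase-like gene, was at log2 −1.20 ± 0.19 in brl3-2 and −1.42 ± 0.19 in WT. XTH26, whose product cuts and rejoins xyloglucan, was at −1.52 ± 0.52 in brl3-2 and −1.08 ± 0.55 in WT, with the widest SE of the falling genes. Shallower changes were seen in the galactosidase gene BGAL2 (−1.02 ± 0.21 in brl3-2 and −0.90 ± 0.20 in WT), the arabinogalactan protein gene AGP25 (−0.91 ± 0.15 in brl3-2 and −0.82 ± 0.15 in WT), the pectin methylesterase inhibitor gene AT5G62350 (−0.74 ± 0.14 in brl3-2 and −0.71 ± 0.14 in WT) and the aspartyl protease gene AT3G20015 (−0.96 ± 0.21 in brl3-2 and −0.93 ± 0.21 in WT).

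In the group of other signalling genes, BT1, which takes part in responses to nitrate, averaged 63.1 ± 9.28 CPM in brl3-2 zeocin, against 120 ± 10.5 CPM in brl3-2 mock, and 74.3 ± 23.8 CPM in WT zeocin, against 142 ± 32.3 CPM in WT mock. WNK9, a protein kinase gene, averaged 6.23 ± 0.675 CPM in brl3-2 zeocin, against 15 ± 0.219 CPM in brl3-2 mock, and 6.25 ± 0.951 CPM in WT zeocin, against 16.4 ± 2.49 CPM in WT mock. PPCK2 encodes a kinase of phosphoenolpyruvate carboxylase and was at log2 −0.77 ± 0.26 in brl3-2 and −0.97 ± 0.25 in WT. ATL8, which encodes a RING protein of the ubiquitin system, was at −1.22 ± 0.25 in brl3-2 and −0.85 ± 0.24 in WT. BT1 was among the most abundant falling genes in CPM. Of the 5 genes for nitrate uptake and assimilation 0 passed the test in either genotype in edgeR or DESeq2. At an unadjusted edgeR p under 0.05 there were 0 in brl3-2 and 1 in WT, against 15.2% and 13.7% of all genes. Over all genes, 1.05% were called lower and 4.32% higher in brl3-2, and 0.900% and 4.07% in WT. For 5 genes, 0 calls is near those shares.

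AT5G10580 and AT5G43180 share an annotation, DUF599, a domain of unknown function. AT5G10580 had 3.16, 3.85 and 3.27 CPM in brl3-2 zeocin, against 23.5, 24.4 and 23.3 CPM in brl3-2 mock, and 2.75, 5.20 and 3.72 CPM in WT zeocin, against 31.2, 23.2 and 21.0 CPM in WT mock. AT5G43180 had 7.31, 4.42 and 4.60 CPM in brl3-2 zeocin, against 17, 18.3 and 16.8 CPM in brl3-2 mock, and 4.74, 4.81 and 6.22 CPM in WT zeocin, against 20.8, 22.7 and 17.5 CPM in WT mock. In both genes the zeocin libraries lay well below the mock libraries. AT3G27030, an uncharacterized gene and the third most abundant falling gene per kilobase in mock (67.3 CPM per kilobase), had 16.1, 14.8 and 17.1 CPM in brl3-2 zeocin, against 30.2, 25 and 30.9 CPM in brl3-2 mock, and 14.9, 14.5 and 16.0 CPM in WT zeocin, against 33.3, 29.8 and 23.9 CPM in WT mock. Its 6 zeocin libraries lay between 14.5 and 17.1 CPM and its 6 mock libraries between 23.9 and 33.3 CPM. The non-coding RNAs AT1G19968 and AT5G07322 ranked 33 and 64 among the 83 when ordered from the lowest ratio (log2 −1.38 ± 0.19 in brl3-2 and −0.95 ± 0.19 in WT, and −0.72 ± 0.15 in brl3-2 and −1.04 ± 0.15 in WT).

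As gene models the falling genes were shorter and simpler than the other genes tested. Their median number of introns was 2, against 4 over all genes tested, and 25 of 83 (30.1%) had no intron, against 13.8%. Median exon length was 1522 bases, against 1778, and the median level in mock was 6.44 CPM per kilobase, against 9.55. At least 10% of the exon bases were shared with exons of the other strand in 4 falling genes (4.82%), against 10.7% of all. They were spread over the nuclear chromosomes, with 14, 14, 19, 16 and 20 genes on chromosomes 1 to 5. Besides the UMAMIT pair, AT1G49310 and USPL1 lay within 7807 bases of each other.

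In edgeR's fit over all 19437 genes tested, every falling gene was tested. An adjusted p under 0.05 with a lower level under zeocin was reached by 67 of the 83 in brl3-2, where 1.05% of all genes were called lower, and by 68 in WT, where 0.900% were called lower. The rule used these same contrasts, so nothing is read from the counts. The brl3-2 count was 43 without brl3-2 zeocin replicate 2. The median log2 fold change was −1.05 in brl3-2 and −1.04 in WT, with quartiles of −1.37 and −0.82 in brl3-2 and −1.34 and −0.90 in WT.

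**Figure D4:**
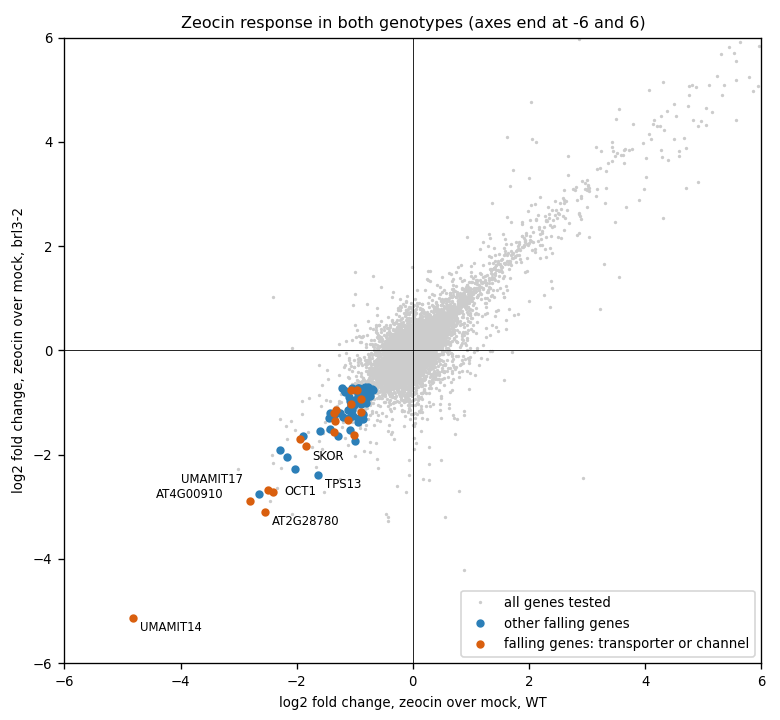
log2 fold change of zeocin over mock in WT (horizontal) and brl3-2 (vertical) for all genes tested (grey), the falling genes that encode transporters or channels (orange) and the other falling genes (blue), with axes ending at −6 and 6. The falling genes occupy the lower left corner because the rule placed them there, and UMAMIT14 lies apart at −4.82 in WT and −5.13 in brl3-2.

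Libraries that a choice of genes did not use give a check that is free of the rule. The WT libraries alone picked 109 genes by the same thresholds, of which 83 (76.1%) are the falling genes. In a fit on the 6 brl3-2 libraries alone, all 109 were lower under zeocin and 86 (78.9%) passed edgeR's test, where 1.70% of all genes were called lower. Their median log2 fold change there was −0.94, against −0.00 over all genes. The brl3-2 libraries alone picked 188 genes, of which 83 (44.1%) are the falling genes. In a fit on the 6 WT libraries alone, 177 of the 188 were lower under zeocin and 48 (25.5%) passed edgeR's test, where 0.414% of all genes were called lower, with a median of −0.72 against −0.01. That count was 84 in DESeq2 and between 20 and 60 with 1 WT library left out. In the fit on all 12 libraries it was 76. That fit shares its spread with the brl3-2 libraries that picked the genes, so 76 is not free of the rule.

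The rule was also applied to the libraries of 2 replicate numbers and read out in the number left out. With number 1 left out it picked 81 genes, of which 75 (92.6%) were lower under zeocin in both genotypes in the libraries numbered 1, against 48.7% of all genes of at least 2 CPM in mock. With number 2 left out, 83 of 89 (93.3%) were lower in both, against 45.6%. With number 3 left out, 97 of 107 (90.7%) were lower in both, against 31.2%. A ratio of at most 0.6 in both genotypes was met in the left-out libraries by 66.7%, 56.2% and 45.8% of the picked genes, against 0.752%, 0.652% and 0.568% of all. The direction was thus seen again in most picked genes, and the depth of the fall in fewer of them.

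The comparison of brl3-2 with WT was not used by the rule and asks whether the falling genes differ between the genotypes. No falling gene was called. In mock, 0 of the 83 passed edgeR's test at an adjusted p under 0.05, where 0.0257% of all genes were called, and 6 had an unadjusted p under 0.05, against 3.97% of all genes. Under zeocin 0 passed, where 0.0412% of all genes were called, and 3 had an unadjusted p under 0.05, against 2.12%. Over both treatments 0 passed, where 0.0566% of all genes were called. There 11 of the 83 had an unadjusted p under 0.05, against 1018 of the 19437 genes tested (5.24%). In each comparison the share at an unadjusted edgeR p under 0.05 was larger among the falling genes than over all genes. DESeq2 also called 0 in each of these comparisons. The lowest edgeR adjusted p over the falling genes was 0.71 over both treatments, and over the alternatives it went down to 0.091.

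Most of these log2 differences were slightly below 0. The log2 difference was negative for 57 of the 83 genes in mock and for 57 under zeocin. It was also negative for 57 over both treatments, which averages the mock and zeocin comparisons. Its median was −0.10 in mock, −0.08 under zeocin and −0.08 over both, against −0.00, 0.00 and 0.00 over all genes. Its quartiles over both were −0.19 and 0.01, against −0.06 and 0.06 over all genes. The 83 genes were measured in the same libraries and are not replicates, so nothing about the genotype is read from these counts. The mock libraries of brl3-2 and WT did not overlap for 6 falling genes, where 7.79% of all genes were so separated, and the zeocin libraries for 7, where 7.01% were.

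XTH26 had the largest difference between genotypes. It had 3.85, 2.15 and 0.549 CPM in brl3-2 zeocin, against 8.67, 6.53 and 4.04 CPM in brl3-2 mock, and 1.26, 0.836 and 0.885 CPM in WT zeocin, against 1.87, 1.54 and 2.78 CPM in WT mock. The brl3-2 mock libraries lay above all WT libraries, and the brl3-2 libraries of both treatments spread over more CPM than those of WT. The log2 difference of brl3-2 from WT over both treatments was 1.35 ± 0.38 (edgeR adjusted p = 0.71). UMAMIT14 was at −0.72 ± 0.25, AT2G28780 at −0.79 ± 0.30, GA3OX1 at −0.47 ± 0.17 and MYB48 at −0.45 ± 0.15 over both treatments, with edgeR adjusted p between 0.83 and 0.9.

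The size of the fall was close in the 2 genotypes for most falling genes. The difference between the responses, brl3-2 minus WT, had a median of −0.01 on the log2 scale and ran from −0.76 to 0.50. Since the rule asked for a fall in both, this range is a description. Genes that fell more in brl3-2 were TPS13, at −0.76 (95% interval −1.65 to 0.13), AT5G41590, a LURP-one-like gene, at −0.73 (95% interval −1.43 to −0.02), and AAP7, at −0.61 (95% interval −1.43 to 0.21). Genes that fell less in brl3-2 were AT4G04630, at 0.50 (95% interval −0.08 to 1.09), RTFL16, at 0.43 (95% interval −0.31 to 1.17), and AT1G49310, at 0.37 (95% interval −0.24 to 0.98). Of these intervals, that of AT5G41590 left out 0, and over all genes tested edgeR and DESeq2 each called 0 differences at an adjusted p under 0.05, with 0.998% of genes at an unadjusted edgeR p under 0.05.

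Marker genes of root cell types were set beside these values. The list for pericycle and lateral root founder cells, with 5 genes, includes the falling genes LBD16, PHO1 and SKOR, so its count and its sum restate in part how those genes were chosen, and most of the sum is PHO1. Its summed level was 65.1 to 80.8 CPM in brl3-2 zeocin, against 158 to 180 CPM in brl3-2 mock, and 57.4 to 83.2 CPM in WT zeocin, against 170 to 208 CPM in WT mock. In each genotype 4 of its 5 genes fell (edgeR), 3 of them chosen for falling. Over all genes, 1.05% were called lower in brl3-2 and 0.900% in WT. In the fit on the WT libraries alone GATA23 was below the filter on low counts, and 2 of the other 4 fell in edgeR and 3 in DESeq2. The other gene that fell was GATA23, which marks founder cells of lateral roots and is too low for the rule. It changed by −2.63 ± 0.51 in brl3-2 (edgeR adjusted p = 0.0082) and by −2.34 ± 0.50 in WT (edgeR adjusted p = 0.017), on 7 counts in brl3-2 zeocin, against 44 in brl3-2 mock, and 8 in WT zeocin, against 44 in WT mock. LBD29 was at −0.99 ± 0.52 in brl3-2 and −1.23 ± 0.48 in WT and did not pass. None of the 5 was at 0 in all libraries, and the part of these cells in the falls was not tested.

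The markers of most other cell types were not called. Over all genes, 1.05% were called lower and 4.32% higher in brl3-2, and 0.900% and 4.07% in WT. An unadjusted edgeR p under 0.05 was reached by 15.2% of all genes in brl3-2 and 13.7% in WT. In lists this short, 0 called genes is near those shares, so a list without calls is not read as unchanged. Of the xylem markers 0 of 6 passed in either genotype in edgeR or DESeq2, also at an unadjusted edgeR p under 0.05, and their sum was 261 to 328 CPM in brl3-2 zeocin, against 266 to 359 CPM in brl3-2 mock, and 229 to 297 CPM in WT zeocin, against 244 to 275 CPM in WT mock. Of the markers of endodermis (3 genes), root hair (6), root cap (4) and cortex (1), 0 passed edgeR's test in either genotype, DESeq2 called 1 root hair gene lower in each, and 2 in brl3-2 and 1 in WT had an unadjusted edgeR p under 0.05. In the phloem list SEOR1 and CalS7 rose in both genotypes among 4 genes, with a sum of 98.3 to 136 CPM in brl3-2 zeocin, against 74.1 to 87.8 CPM in brl3-2 mock, and 118 to 147 CPM in WT zeocin, against 55.7 to 90.2 CPM in WT mock. Among the 6 markers of the meristem and its niche, WOX5 and JKD fell in brl3-2 (edgeR), while in WT 0 passed in edgeR or DESeq2 and 2 had an unadjusted edgeR p under 0.05. WOX5, at 0.782 CPM in brl3-2 mock and 0.757 CPM in WT mock, changed by −1.36 ± 0.35 in brl3-2 and −0.57 ± 0.32 in WT. JKD changed by −0.25 ± 0.06 in brl3-2 and −0.19 ± 0.06 in WT. The difference between the 2 responses had an unadjusted edgeR p under 0.05 for 0 of the 6. Of 18 G2/M cell cycle genes 0 passed in either genotype in edgeR or DESeq2, with 3 in each at an unadjusted edgeR p under 0.05, and the list held 0 falling genes.

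**Figure D5:**
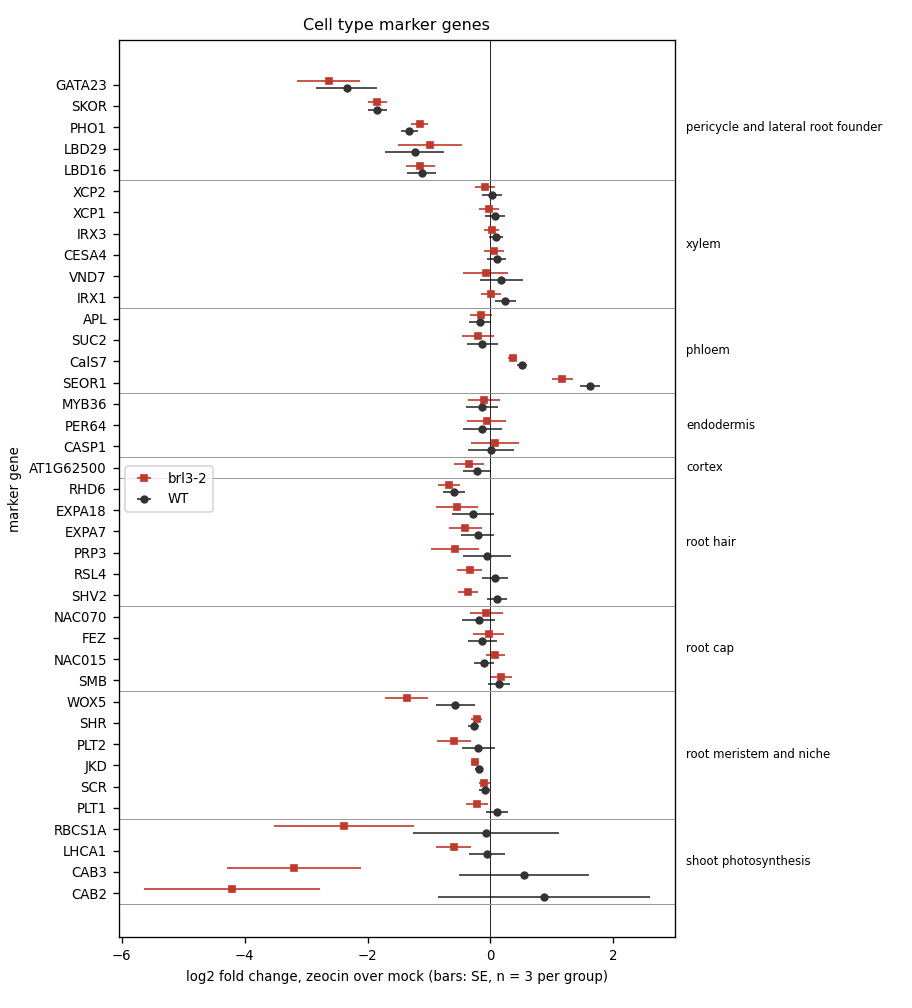
log2 fold change of zeocin over mock, with SE, for marker genes of root cell types (rows, grouped by type) in brl3-2 (squares) and WT (circles), 3 libraries per group. The pericycle and lateral root founder genes lie between −0.99 and −2.63, and the genes of xylem, endodermis, cortex and root cap lie near 0.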

How the data were processed

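RNA-seq was done on primary root tips in 12 libraries, 3 for each of 4 groups, and 24 samples are described because each library was sequenced in 2 runs. The authors deposited a table of raw gene counts, made before any normalization. The submitters' processing notes name HISAT2 2.1, featureCounts 1.6.2, FastQC 0.11.2, Trimmomatic 0.38, edgeR 3.34.1 and the genome build TAIR10. Per the labels' protocols libraries were made with a stranded mRNA kit. Whether counting used strand, and how the 2 runs were combined, is not given in the sources used here. The row without a gene name, at most 0.00393% of a library, was left out.

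CPM (counts divided by the column sum, times 1000000) were computed, and the rule applied to them. Counts were fitted in R 4.3.3 with edgeR 4.0.16 (filterByExpr with minimum count 10 and minimum total 15, TMM, quasi-likelihood test, 1 coefficient per group, 12 libraries), which left 19437 genes, and p-values are two-sided and adjusted by Benjamini-Hochberg over them. A gene was called at an adjusted p under 0.05. SE is the log2 fold change divided by the root of the F statistic. DESeq2 1.42.0 was an alternative, beside other scaling, no filter, a replicate block and leaving out libraries. The procedure was tested on simulated data. The labels speak of biological replicates, and no library of a group matched another within sampling noise, so all 12 were kept.

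Names, products, coordinates and promoters come from NCBI RefSeq TAIR10.1, matched by locus identifier for all 83 genes, and no coordinate is given by the deposited table. Per-library values are given for the 15 genes with the lowest ratios and the 4 with the highest mock level per kilobase, and for XTH26, chosen after its values were seen. Other genes were named by family, by list, at the threshold or by their difference between responses, and further falling genes after their values were seen. The falling genes and all gene lists were chosen with earlier results of these data known. CPM per kilobase uses the exon bases of TAIR10.1. Intervals of differences are 95% intervals on the SE.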

Additional observations from a re-analysis of the deposited data

Results flagged for a closer look

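The row of the table that carries no gene name held at most 2497 counts in a library, in WT zeocin replicate 3, which is not a part of any comparison.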

How the results depend on the processing

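The number of falling genes was 40 with a ratio of at most 0.5 and lay between 59 and 103 with another scaling, another mock minimum, overlap allowed or both WT libraries numbered 3 left out, against 83. With 1 library left out it was 80 to 100, with 1 replicate number left out 81 to 107, and 53 of the 83 genes were found with any 1 library left out. Called lower under zeocin were 43 to 74 of them in brl3-2 (main value 67) and 51 to 69 in WT (68) with 1 library left out, the lowest brl3-2 count coming without brl3-2 zeocin replicate 2. Of the 188 genes picked in brl3-2, 48 were called lower in WT, with 84 in DESeq2, 76 in the fit on all 12 libraries and 20 to 60 with 1 library left out. The fit on all 12 libraries also uses the spread of the brl3-2 libraries that picked these genes. The cause of the differences between these counts was not tested. Of the 109 genes picked in WT, 60 to 82 were called lower in brl3-2 with 1 library left out, against 86. For the difference between genotypes 0 falling genes were called in every alternative run. Of 510 recomputed zeocin changes of single falling genes, 2 moved by more than the spread (TPS13 in brl3-2 to −2.11 without brl3-2 mock replicate 3, and AT5G43180 in WT to −2.15 without both WT libraries numbered 3) and 0 reversed. Depth limits UMAMIT14 and GATA23, which had few counts under zeocin, and LBD14, LBD33 and IAA5, which were low already in mock.

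Same-numbered libraries of different groups had correlations of their deviations between −0.32 and 0.59, so the numbers were not taken to pair the samples. Both ends lie in number 3. There WT zeocin had 0.59 with WT mock, 0.42 with brl3-2 mock and −0.12 with brl3-2 zeocin. WT mock had 0.40 with brl3-2 mock and −0.32 with brl3-2 zeocin, and the 2 brl3-2 groups had 0.03. Whether libraries numbered 3 share a batch was not tested. With the replicate block, 71 falling genes were called lower in brl3-2 and 73 in WT, 80 of the 109 and 65 of the 188 were called in the other genotype, and 0 differed between genotypes.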
